A study of Arabidopsis with 22 samples.

Results

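The evening transcriptome of *acd6-1lux-1* was compared with that of wild-type Col-0 at ZT13, which is 1 h after lights off in a cycle of 12 h light and 12 h dark. The comparison was made up of the 2 *acd6-1lux-1* and the 3 Col-0 libraries that the labels place at ZT13, 5 of the 22 libraries of the series. Of the 25218 transcripts in the table, 21666 had a mean above 0.3 RPKM in at least 1 group and were tested. RPKM is the number of reads per kilobase of gene length, corrected for library depth. The study sequenced RNA of whole Arabidopsis plants of 4 genotypes at ZT1 and ZT13, to learn how the clock gene *LUX* acts on defense. All plants were 25 days old, in the Col-0 background, without infection or chemical treatment. *acd6-1lux-1* is homozygous for both mutations and came from 1 cross of the single mutants. *lux-1* carries an early nonsense mutation in *LUX*, and *acd6-1* carries a gain-of-function allele of *ACD6* with constitutive defense. The single mutants at ZT13 (2 *acd6-1* and 3 *lux-1* libraries) and the plants of ZT1 (3 *acd6-1lux-1* and 3 Col-0 libraries) were set beside this comparison. All 22 libraries of the series were fitted in 1 model and entered its shared estimate of the spread. How many plants went into a library is not given in the sources used here. The p-values therefore rest on the spread between libraries within all 8 groups, which may in part be technical. In RNA of whole plants, fewer cells of a type and less RNA per cell cannot be told apart.

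*LUX* is a DNA-binding protein of the evening complex, which it forms with *ELF3* and *ELF4*, and which represses clock and growth genes around dusk. *ACD6* is a membrane protein that acts with salicylic acid (SA), the hormone of defense against biotrophic pathogens. The active *acd6-1* allele keeps SA synthesis and SA-dependent defense on and leaves the plants small. A plant with both mutations carries the *lux-1* mutation together with the active *acd6-1* allele. In the paper the double mutant was larger than *acd6-1*, with less cell death, less SA and lower *PR1* expression.

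The 2 *acd6-1lux-1* libraries of ZT13 held 12959225 and 13607568 mapped reads, and the 3 Col-0 libraries between 11628138 and 14252869. Mapping rates of these 5 libraries lay between 80.43% and 81.18%, and chloroplast transcripts took at most 0.0238% of their reads. Over the whole series mapped reads lay between 10306552 and 16224975. Fold changes are differences of means of log2(RPKM + 1), *acd6-1lux-1* minus Col-0 unless said otherwise, and understate the change of weakly expressed genes. SE is the standard error of that difference. P-values come from limma and were adjusted by the Benjamini-Hochberg method over all 21666 genes. Passing the test means an adjusted p under 0.1, for single genes and for members of lists alike. A gene was called when its fold change was also beyond 1 on the log2 scale in either direction.

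The mutated genes were read first. *LUX* (AT3G46640) had 70.8 and 65.3 RPKM in *acd6-1lux-1* and 6.10, 6.28 and 6.84 RPKM in Col-0 (log2 fold change 3.22, SE 0.20, adjusted p = 1.2e-08). The transcript of the mutant allele was thus 10.6-fold above the wild-type level in mean RPKM, with no overlap of the groups. *lux-1* plants had 71.4, 81.0 and 75.6 RPKM, all above both libraries of the double mutant, and *acd6-1* plants had 8.17 and 6.10 RPKM. The level of this transcript does not report on the protein. *ACD6* (AT4G14400) had 292 and 295 RPKM in *acd6-1lux-1* and 418, 299.7 and 393 RPKM in Col-0 (log2 fold change -0.32, SE 0.22, adjusted p = 0.28). The level of *ACD6* in the evening was not separated from that of Col-0 by the test.

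At ZT13, 2000 genes (9.23%) were called between *acd6-1lux-1* and Col-0, of which 1398 (6.45%) were higher and 602 (2.78%) lower in *acd6-1lux-1*. Without the fold criterion 9232 genes (42.6%) passed, 4502 (20.8%) as higher and 4730 (21.8%) as lower, and the median fold change of all tested genes was -0.02. The libraries of the 2 groups did not overlap in 13638 genes (62.9%), and in 1999 of the 2000 called genes. Increases were thus more numerous among the called genes, and decreases were slightly more numerous among all genes that passed.

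The 12 largest rises were taken from called genes with a mean of at least 5 RPKM and no overlap of the libraries. They were mostly defense genes. *FMO1* (AT1G19250), the monooxygenase that makes the mobile immune signal N-hydroxypipecolic acid (NHP), led with 44.0 and 44.5 RPKM in *acd6-1lux-1* and 0.378, 0.264 and 0.203 RPKM in Col-0 (log2 fold change 5.14, SE 0.37, adjusted p = 4.5e-08). AT3G13610, annotated as F6'H1, an enzyme of the coumarin scopoletin, had 49.1 and 53.3 RPKM in *acd6-1lux-1* and 0.713, 0.258 and 0.896 RPKM in Col-0 (log2 fold change 5.03, SE 0.37, adjusted p = 5.1e-08). *PBS3* (AT5G13320), which conjugates the precursor from which SA is released, had 287 and 330.2 RPKM in *acd6-1lux-1* and 15.8, 10.4 and 9.29 RPKM in Col-0 (log2 fold change 4.62, SE 0.32, adjusted p = 3.6e-08). In these 3 genes the lowest *acd6-1lux-1* library was more than 10 times the highest Col-0 library. *CYP96A15* (AT1G57750), a wax enzyme known from stems, stood among them with 20.8 and 32.9 RPKM in *acd6-1lux-1* and 0.0576, 0.188 and 0.108 RPKM in Col-0 (log2 fold change 4.6, SE 0.70, adjusted p = 6.1e-05). Both *acd6-1lux-1* libraries expressed it, and no Col-0 library exceeded 0.188 RPKM. The other rises of this group were AT5G52720 (log2 fold change 4.72), the defense marker *NHL10* (4.58), the cell death regulator *BAP2* (4.55), the NHP synthesis gene *ALD1* (4.54), the transcription factor gene *NAC061* (4.43), the SA marker *PR1* (4.38), the alternative oxidase gene *AOX1D* (4.29) and the fatty acid dioxygenase gene *DOX1* (4.28).

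The 12 largest falls, taken by the same rule, included genes of the cold response and of jasmonic acid (JA). *COR15A* (AT2G42540), a chloroplast protein that protects membranes in the cold, had 37.6 and 33.9 RPKM in *acd6-1lux-1* and 793, 558 and 661 RPKM in Col-0 (log2 fold change -4.18, SE 0.32, adjusted p = 7.1e-08). *CORI3* (AT4G23600), a cystine lyase gene induced by JA, had 63.5 and 184 RPKM in *acd6-1lux-1* and 1545, 1733 and 1418 RPKM in Col-0 (log2 fold change -3.84, SE 0.48, adjusted p = 7.2e-06). *FSD1* (AT4G25100), an iron superoxide dismutase, had 22.7 and 30.7 RPKM in *acd6-1lux-1* and 203, 180.0 and 177 RPKM in Col-0 (log2 fold change -2.77, SE 0.35, adjusted p = 7.6e-06). The lack of overlap in these genes was a condition of their choice, and the 2 *acd6-1lux-1* values of *CORI3* differed almost 3-fold. *AZI1* (AT4G12470), a lipid-transfer-like protein of systemic immunity, fell too, with 1.43 and 3.63 RPKM in *acd6-1lux-1* and 19.6, 23.5 and 21.5 RPKM in Col-0 (log2 fold change -2.75, SE 0.31, adjusted p = 2.5e-06). The other falls were the cold gene *KIN1* (log2 fold change -3.25), AT3G05727 (-3.11), AT1G30250 (-3.10), the cellulose-synthase-like gene *CSLA01* (-3.10), AT5G47330 (-2.98), AT4G22513 (-2.88), the JA synthesis gene *AOC1* (-2.85) and the chloroplast cold gene *COR413IM1* (-2.84). AT3G05727 and AT4G22513 missed the test without the first *acd6-1lux-1* library (adjusted p = 0.205 and 0.128). *CSLA01* differed most between the *acd6-1lux-1* libraries, with 1.79 and 14.2 RPKM in *acd6-1lux-1* against 44.4, 80.3 and 46.4 RPKM in Col-0.

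**Figure D1:**
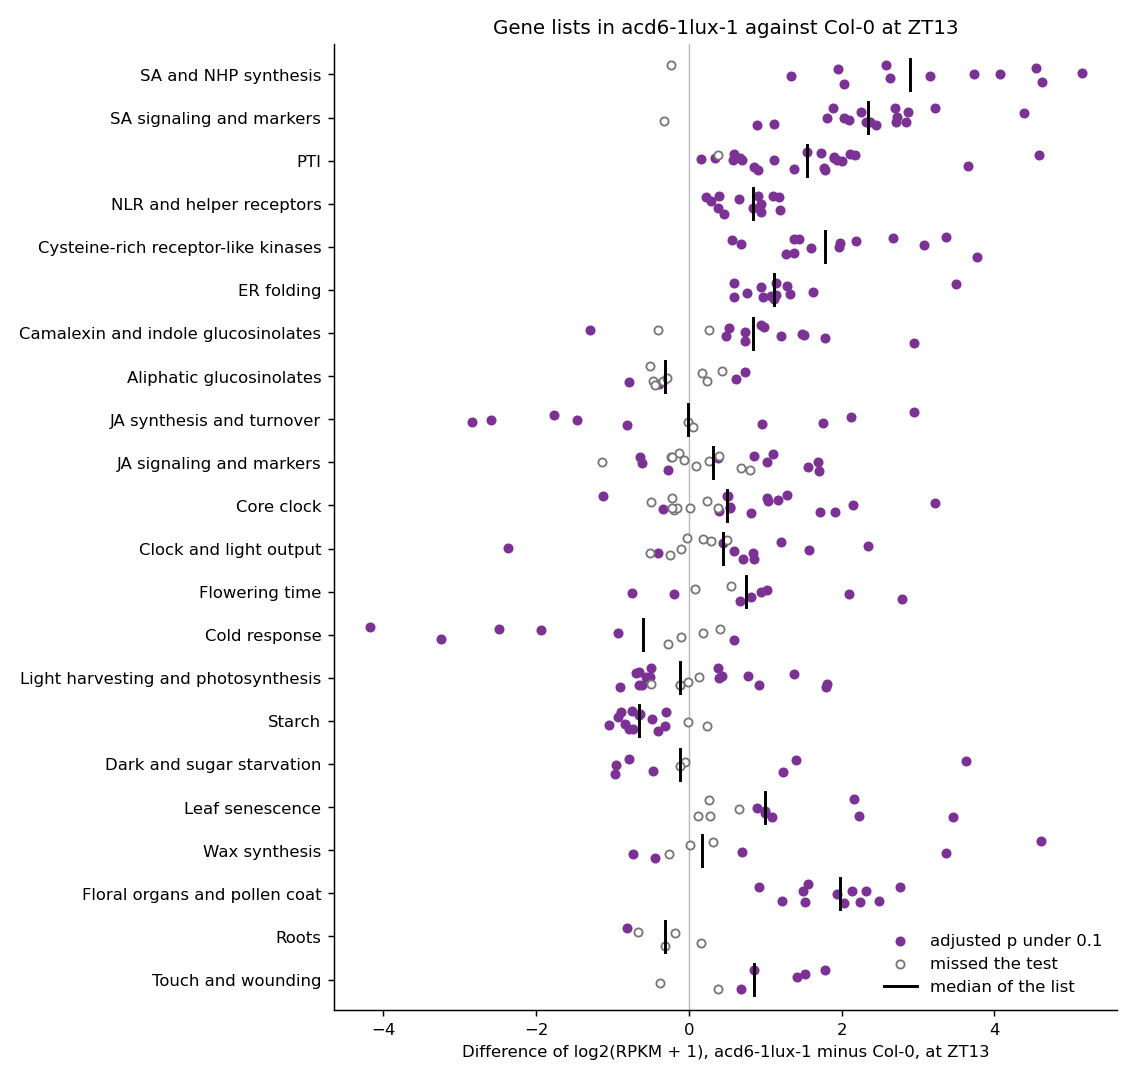
Each point is 1 gene of a gene list, placed by its log2 fold change in *acd6-1lux-1* against Col-0 at ZT13 on the scale of log2(RPKM + 1); filled points passed at an adjusted p under 0.1, open points did not, and the black bar is the median of the list. The SA and NHP synthesis list sits furthest to the right with a median of 2.90, the starch list has its 13 falls left of 0 and 2 members that missed the test, of which *BAM9* lies right of 0, and the light harvesting list is spread on both sides with a median of -0.12.

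The lists below group genes by role, and each is given by how many of its tested members rose, fell or missed the test, to be read against the 20.8% and 21.8% of all genes that rose and fell. In SA and NHP synthesis, 11 of 12 members rose and 1 missed the test, with a median fold change of 2.90 against -0.02 over all genes. *ICS1* (AT1G74710), the chloroplast enzyme that opens the main route to SA, had 182 and 233 RPKM in *acd6-1lux-1* and 18.1, 12.7 and 13.4 RPKM in Col-0 (log2 fold change 3.73, SE 0.25, adjusted p = 2.5e-08). *ALD1* (AT2G13810), the aminotransferase at the start of NHP synthesis, had 36.2 and 36.8 RPKM in *acd6-1lux-1* and 0.69, 0.614 and 0.532 RPKM in Col-0 (log2 fold change 4.54, SE 0.36, adjusted p = 1e-07). Of the transcription factors that switch on *ICS1*, *SARD1* (AT1G73805) had 314 and 312 RPKM in *acd6-1lux-1* and 38.2, 29.9 and 35.1 RPKM in Col-0 (log2 fold change 3.16, SE 0.25, adjusted p = 8.7e-08). Synthesis genes and their activators thus lay 9-fold or more above Col-0 in mean RPKM in these examples, each without overlap. Genes of SA removal rose as well. *DLO1* (AT4G10500), an SA hydroxylase, had 163 and 149 RPKM in *acd6-1lux-1* and 14.1, 5.08 and 7.87 RPKM in Col-0 (log2 fold change 4.07, SE 0.40, adjusted p = 6.2e-07). Its relative *DMR6* rose by 1.95 on the log2 scale, *EDS5*, which exports the SA precursor from the chloroplast, by 2.58, *CBP60G*, an activator beside *SARD1*, by 2.64, and AT5G52810 by 1.34. *UGT76B1*, which adds glucose to SA and NHP, rose by 2.03 with 46.7 and 24.9 RPKM in *acd6-1lux-1* and 10.7, 6.16 and 6.69 RPKM in Col-0, and missed the test without the first *acd6-1lux-1* library (adjusted p = 0.122). *EPS1*, which releases SA from the *PBS3* product, had 3.67 and 6.36 RPKM in *acd6-1lux-1* and 6.66, 6.02 and 5.09 RPKM in Col-0 and missed the test (adjusted p = 0.36).

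In SA signaling and markers, 17 of 18 members rose, *ACD6* missed the test, and the median was 2.35. *PAD4* (AT3G52430), a lipase-like partner of *EDS1* in immune signaling, had 264 and 249 RPKM in *acd6-1lux-1* and 41.0, 34.0 and 40.8 RPKM in Col-0 (log2 fold change 2.71, SE 0.17, adjusted p = 1.3e-08). *EDS1* (AT3G48090) itself had 151 and 135 RPKM in *acd6-1lux-1* and 33.4, 25.2 and 29.3 RPKM in Col-0 (log2 fold change 2.26, SE 0.17, adjusted p = 6.4e-08). Among SA receptors, *NPR3*, *NPR4* and *NPR1* rose by 2.09, 1.11 and 0.89 on the log2 scale. The largest values belonged to the pathogenesis-related genes. *PR1* (AT2G14610), the standard marker of SA, had 3176 and 5043 RPKM in *acd6-1lux-1* and 246, 178 and 159.6 RPKM in Col-0 (log2 fold change 4.38, SE 0.73, adjusted p = 0.00014). *PR5* (AT1G75040), a thaumatin-like protein, had 1787 and 2040.3 RPKM in *acd6-1lux-1* and 333, 194 and 292 RPKM in Col-0 (log2 fold change 2.84, SE 0.24, adjusted p = 2e-07), and the glucanase gene *PR2* rose by 2.72. *PR1* spread more between libraries of 1 genotype than *PR5*, and no *acd6-1lux-1* library came near a Col-0 library in either gene. The SA-responsive factor *WRKY70* (AT3G56400) had 613 and 577 RPKM in *acd6-1lux-1* and 124, 118 and 113 RPKM in Col-0 (log2 fold change 2.32, SE 0.25, adjusted p = 1.8e-06), and the nudix hydrolase gene *NUDT6* rose by 3.23.

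Pattern-triggered immunity (PTI) starts at receptors on the cell surface that bind microbial patterns. Of its 23 list members 22 rose, 1 missed the test, and the median was 1.54. The rises were small at the flagellin receptor *FLS2* (0.58) and the chitin co-receptor *CERK1* (0.34) and larger at the chitin receptor *LYK5* (2.17) and the receptor of bacterial elongation factor *EFR* (1.37). *MPK11* (AT1G01560), a mitogen-activated protein kinase, had 227 and 224 RPKM in *acd6-1lux-1* and 19.6, 14.8 and 17.0 RPKM in Col-0 (log2 fold change 3.65, SE 0.29, adjusted p = 1.1e-07). *MPK3*, a kinase of the same cascade level, rose by 1.73, and *MPK6* by 0.16, the smallest rise of the list. *MPK6* missed the test without the second Col-0 library (adjusted p = 0.153) or the first *acd6-1lux-1* library (adjusted p = 0.343), and *CERK1* without the first *acd6-1lux-1* library (adjusted p = 0.195). *RBOHD* (AT5G47910), the oxidase of the immune oxidative burst, had 232 and 258 RPKM in *acd6-1lux-1* and 56.9, 72.3 and 66.5 RPKM in Col-0 (log2 fold change 1.90, SE 0.21, adjusted p = 2.4e-06). Of the WRKY factors, *WRKY53* rose by 2.11, *WRKY33* by 1.77 and *WRKY22* by 1.12. *WRKY29* had 4.98 and 3.37 RPKM in *acd6-1lux-1* and 3.01, 2.53 and 3.28 RPKM in Col-0 and was the member that missed the test (adjusted p = 0.25).

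Intracellular receptors of the NLR class and their helpers rose in 13 of 13 cases, by 0.23 to 1.19 on the log2 scale with a median of 0.84, so the group moved together but by small steps. The helper *ADR1-L1* (AT4G33300) had 209.6 and 204 RPKM in *acd6-1lux-1* and 92.4, 83.2 and 94.9 RPKM in Col-0 (log2 fold change 1.19, SE 0.14, adjusted p = 3.3e-06). *SNC1* (AT4G16890), a receptor of the TIR type, had 88.5 and 88.4 RPKM in *acd6-1lux-1* and 56.1, 54.2 and 56.9 RPKM in Col-0 (log2 fold change 0.66, SE 0.08, adjusted p = 6.1e-06). *RPM1*, a receptor of bacterial effectors, rose by 0.39, and *RPP8*, a receptor of oomycete effectors, by 0.23. *RPM1* and *RPP8* missed the test without the first *acd6-1lux-1* library (adjusted p = 0.119 and 0.106). Of 14 cysteine-rich receptor-like kinases (CRK) all 14 rose, with a median of 1.78. *CRK37* (AT4G04500) had 34.1 and 40.5 RPKM in *acd6-1lux-1* and 2.44, 1.19 and 1.92 RPKM in Col-0 (log2 fold change 3.77, SE 0.28, adjusted p = 7.1e-08), and *CRK7* rose by 3.36. Reads of these tandem copies may have been split between neighbours by the counting, so single members are less certain than the group.

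Protein folding in the endoplasmic reticulum (ER), through which secreted PR proteins pass, rose in 13 of 13 list members with a median of 1.11. *BIP3* (AT1G09080), the stress-induced form of the ER chaperone BiP, had 39.7 and 35.2 RPKM in *acd6-1lux-1* and 4.66, 1.90 and 1.4 RPKM in Col-0 (log2 fold change 3.50, SE 0.32, adjusted p = 3.2e-07). *HSP90.7* (AT4G24190), the ER form of HSP90, had 554 and 492 RPKM in *acd6-1lux-1* and 248, 195 and 199 RPKM in Col-0 (log2 fold change 1.29, SE 0.12, adjusted p = 3.7e-07). *BIP3* was weakly expressed in Col-0 and changed most, while the abundant chaperones moved by 1.33 or less. Calreticulin *CRT1B* rose by 1.11, calnexin *CNX1* by 1.08, the protein disulfide isomerase *PDIL1-2* by 1.33 and the factor *BZIP60*, which drives ER stress genes, by 1.63.

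In camalexin and indole glucosinolate synthesis, 2 groups of tryptophan-derived defense compounds, 11 of 14 members rose, 1 fell and 2 missed the test, with a median of 0.84. *PAD3* (AT3G26830), the last enzyme of camalexin synthesis, had 159.9 and 154 RPKM in *acd6-1lux-1* and 29.2, 18.5 and 13.6 RPKM in Col-0 (log2 fold change 2.95, SE 0.54, adjusted p = 0.00034). The regulators of the indole branch parted. *MYB51* (AT1G18570) had 90.1 and 87.0 RPKM in *acd6-1lux-1* and 26.1, 34.3 and 33.7 RPKM in Col-0 (log2 fold change 1.48, SE 0.24, adjusted p = 0.00013). *MYB34* (AT5G60890), its relative with the same targets, had 9.21 and 14.4 RPKM in *acd6-1lux-1* and 34.4, 26.4 and 28.8 RPKM in Col-0 (log2 fold change -1.29, SE 0.27, adjusted p = 0.0012). *MYB51* lay higher and *MYB34* lower in every *acd6-1lux-1* library than in any Col-0 library. *CYP79B2*, which makes the shared precursor indole-3-acetaldoxime, rose by 0.74 and missed the test without the second *acd6-1lux-1* library (adjusted p = 0.204). Its duplicate *CYP79B3* had 53.1 and 80.7 RPKM in *acd6-1lux-1* and 91.1, 82.8 and 86.4 RPKM in Col-0 and missed the test (adjusted p = 0.25). Aliphatic glucosinolates, made from methionine, showed 2 rises, 2 falls and 8 members that missed the test, with a median of -0.31. Both rises, of *CYP79F2* and *SOT17*, missed the test without the second *acd6-1lux-1* library (adjusted p = 0.375 and 0.184). The fall of *CYP83A1* was lost without the first *acd6-1lux-1* library (adjusted p = 0.654), without the second or the third Col-0 library (adjusted p = 0.186 and 0.178) and, by less, without 1 of 3 libraries of ZT1 (adjusted p from 0.1 to 0.102). *MYB28* (AT5G61420), their main regulator, fell, with 38.0 and 41.3 RPKM in *acd6-1lux-1* and 66.5, 66.3 and 74.3 RPKM in Col-0 (log2 fold change -0.78, SE 0.13, adjusted p = 0.00015). The 2 *acd6-1lux-1* libraries differed in this pathway, as in *BCAT4*, its first enzyme, with 138 and 247 RPKM in *acd6-1lux-1* and 148, 162 and 160.0 RPKM in Col-0 (adjusted p = 0.58).

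**Figure D2:**
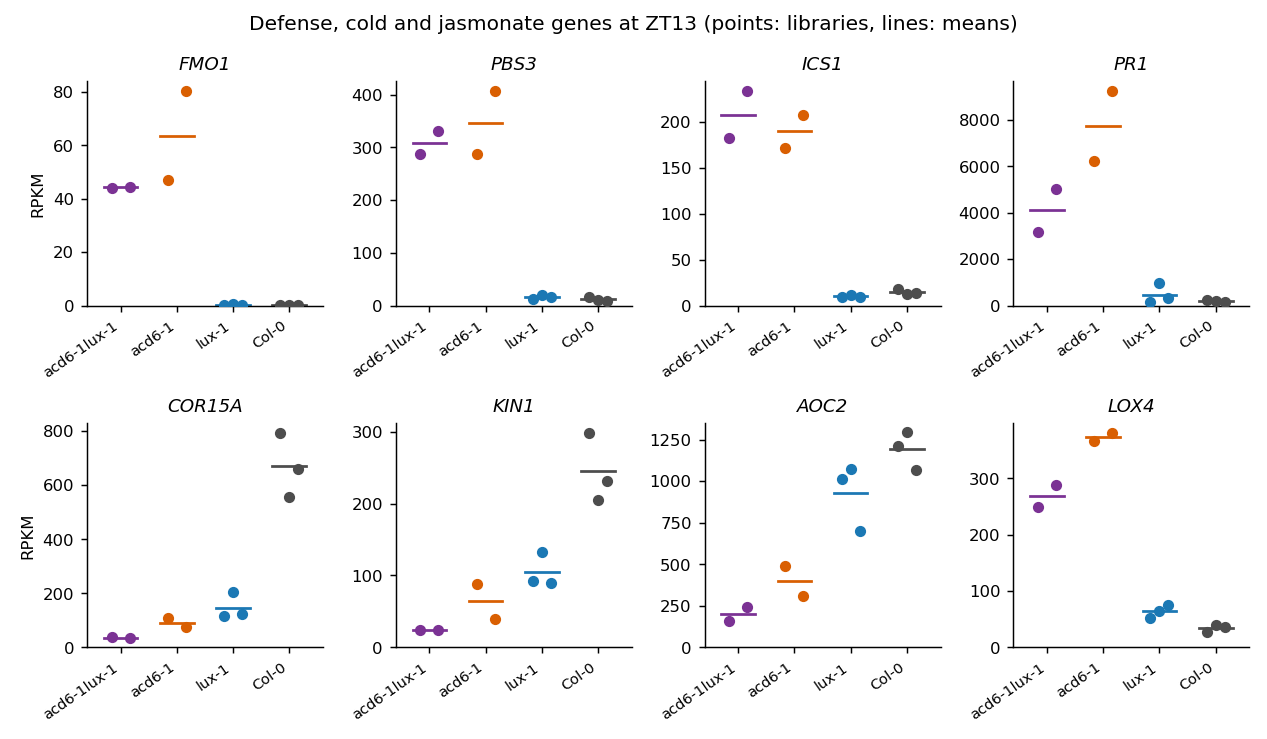
RPKM per library at ZT13, on linear axes that start at 0, for 8 genes of SA, NHP, cold and JA in *acd6-1lux-1*, *acd6-1*, *lux-1* and Col-0, from left to right; each point is 1 library and each line the mean of a group. *FMO1*, *PBS3*, *ICS1* and *PR1* were high in both genotypes with *acd6-1*, *COR15A* was lowest in *acd6-1lux-1* at 37.6 and 33.9 RPKM, *AOC2* was low and *LOX4* high in *acd6-1lux-1*.

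JA synthesis and turnover showed opposite movements within the pathway, with 4 rises, 5 falls and 2 members that missed the test of 11, and a median of -0.01. The lipoxygenases split by gene. *LOX2* (AT3G45140), the main leaf form, had 566 and 821 RPKM in *acd6-1lux-1* and 1809, 2168 and 1710.5 RPKM in Col-0 (log2 fold change -1.47, SE 0.25, adjusted p = 0.00021). *LOX4* (AT1G72520) had 249 and 288 RPKM in *acd6-1lux-1* and 26.6, 40.6 and 35.7 RPKM in Col-0 (log2 fold change 2.95, SE 0.35, adjusted p = 4e-06), and *LOX3* rose by 2.12. The next steps fell. *AOS* (AT5G42650), allene oxide synthase, had 102 and 147 RPKM in *acd6-1lux-1* and 411, 449 and 399.8 RPKM in Col-0 (log2 fold change -1.77, SE 0.19, adjusted p = 1.8e-06). *AOC2* (AT3G25770), allene oxide cyclase, had 160.1 and 242 RPKM in *acd6-1lux-1* and 1210.1, 1296 and 1069 RPKM in Col-0 (log2 fold change -2.59, SE 0.30, adjusted p = 3.2e-06). *AOC1* and *AOC2* are neighbouring copies whose reads could be split, and both fell. The turnover enzyme *CYP94C1*, which oxidises the active hormone, rose by 1.76, and *OPR3*, which completes the reduction step, had 152 and 189.6 RPKM in *acd6-1lux-1* and 174, 167 and 171 RPKM in Col-0 (adjusted p = 0.98).

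JA signaling and markers showed 7 rises, 3 falls and 10 members that missed the test of 20, with a median of 0.32. The rises included JAZ repressors, which JA induces. *JAZ7* (AT2G34600) had 101 and 114 RPKM in *acd6-1lux-1* and 20.6, 38.3 and 43.2 RPKM in Col-0 (log2 fold change 1.69, SE 0.31, adjusted p = 0.00039), *JAZ8* rose by 1.71, *JAZ5* by 1.11 and *JAZ1* by 0.85. *JAZ9*, *JAZ12* and the transcription factor *MYC4* fell by 0.62, 0.27 and 0.64 on the log2 scale. *JAZ9* missed the test without the first *acd6-1lux-1* library (adjusted p = 0.385) or the second Col-0 library (adjusted p = 0.12). *JAZ12* missed it without either *acd6-1lux-1* library (adjusted p = 0.225 and 0.148) or the first Col-0 library (adjusted p = 0.188). The central factor *MYC2* had 328 and 376 RPKM in *acd6-1lux-1* and 228, 342 and 322 RPKM in Col-0 and missed the test (adjusted p = 0.27). The defensin gene *PDF1.2* rose by 1.56 (adjusted p = 0.072), a call lost without either *acd6-1lux-1* library (adjusted p = 0.11 and 0.332) and without the second or the third Col-0 library (adjusted p = 0.145 and 0.173). The storage protein genes *VSP1* and *VSP2*, markers of the MYC branch, differed by -0.23 and -1.14 and missed the test.

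Of 24 core clock genes, 14 rose, 2 fell and 8 missed the test, with a median of 0.50. The rises held genes known as targets of the evening complex. Of the clock genes that the paper names as earlier known *LUX* targets, *GI*, *LNK1*, *PRR7* and *LUX* rose and *PRR9* missed the test. *PRR7* (AT5G02810), a repressor of the morning genes, had 13.8 and 13.9 RPKM in *acd6-1lux-1* and 3.86, 3.18 and 3.53 RPKM in Col-0 (log2 fold change 1.72, SE 0.10, adjusted p = 1.1e-08). *GI* (AT1G22770), which stabilises a photoreceptor of the clock, had 6.88 and 7.91 RPKM in *acd6-1lux-1* and 1.12, 0.697 and 0.897 RPKM in Col-0 (log2 fold change 2.14, SE 0.17, adjusted p = 8.7e-08). *LNK1* (AT5G64170), a transcriptional coactivator, had 4.31 and 5.01 RPKM in *acd6-1lux-1* and 0.556, 0.33 and 0.619 RPKM in Col-0 (log2 fold change 1.92, SE 0.18, adjusted p = 3.8e-07). Both *acd6-1lux-1* libraries lay above all 3 Col-0 libraries in each of these genes. The relatives of *LNK1*, *LNK2*, *LNK3* and *LNK4*, rose by 1.28, 1.17 and 0.53, and *LNK4* missed the test without either *acd6-1lux-1* library (adjusted p = 0.127 and 0.151) or the second Col-0 library (adjusted p = 0.155).

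Genes expressed at dusk in wild type moved less evenly. *TOC1* (AT5G61380), the evening repressor, had 85.4 and 89.2 RPKM in *acd6-1lux-1* and 41.6, 39.9 and 45.9 RPKM in Col-0 (log2 fold change 1.02, SE 0.13, adjusted p = 1.1e-05). *BOA* (AT5G59570), the closest relative of *LUX*, had 39.0 and 37.9 RPKM in *acd6-1lux-1* and 18.7, 17.9 and 18.3 RPKM in Col-0 (log2 fold change 1.03, SE 0.19, adjusted p = 0.00037). The partners of *LUX* in the evening complex did not rise. *ELF4* (AT2G40080) had 15.2 and 13.8 RPKM in *acd6-1lux-1* and 33.8, 33.6 and 31.1 RPKM in Col-0 (log2 fold change -1.13, SE 0.38, adjusted p = 0.026), a fall that missed the test without the second *acd6-1lux-1* library (adjusted p = 0.131). *ELF3* (AT2G25930) had 39.6 and 40.4 RPKM in *acd6-1lux-1* and 43.2, 43.3 and 47.9 RPKM in Col-0 (log2 fold change -0.16, SE 0.14, adjusted p = 0.41). *ZTL*, an F-box photoreceptor, fell by 0.33 on the log2 scale and missed the test without the first *acd6-1lux-1* library (adjusted p = 0.21). The morning genes *CCA1* and *LHY* were low in every library. *CCA1* had 0.591 and 1.41 RPKM in *acd6-1lux-1* and 0.471, 0.346 and 0.355 RPKM in Col-0, with a rise of 0.49 (adjusted p = 0.081), and *LHY* rose by 0.53. The call of *CCA1* was lost without the second *acd6-1lux-1* library (adjusted p = 0.632) and without the second or the third Col-0 library (adjusted p = 0.156 and 0.151). *PRR9*, *PRR5*, *RVE4*, *FKF1*, *COR27*, AT5G52660 and AT4G33980 missed the test, with differences between -0.50 and 0.38.

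**Figure D3:**
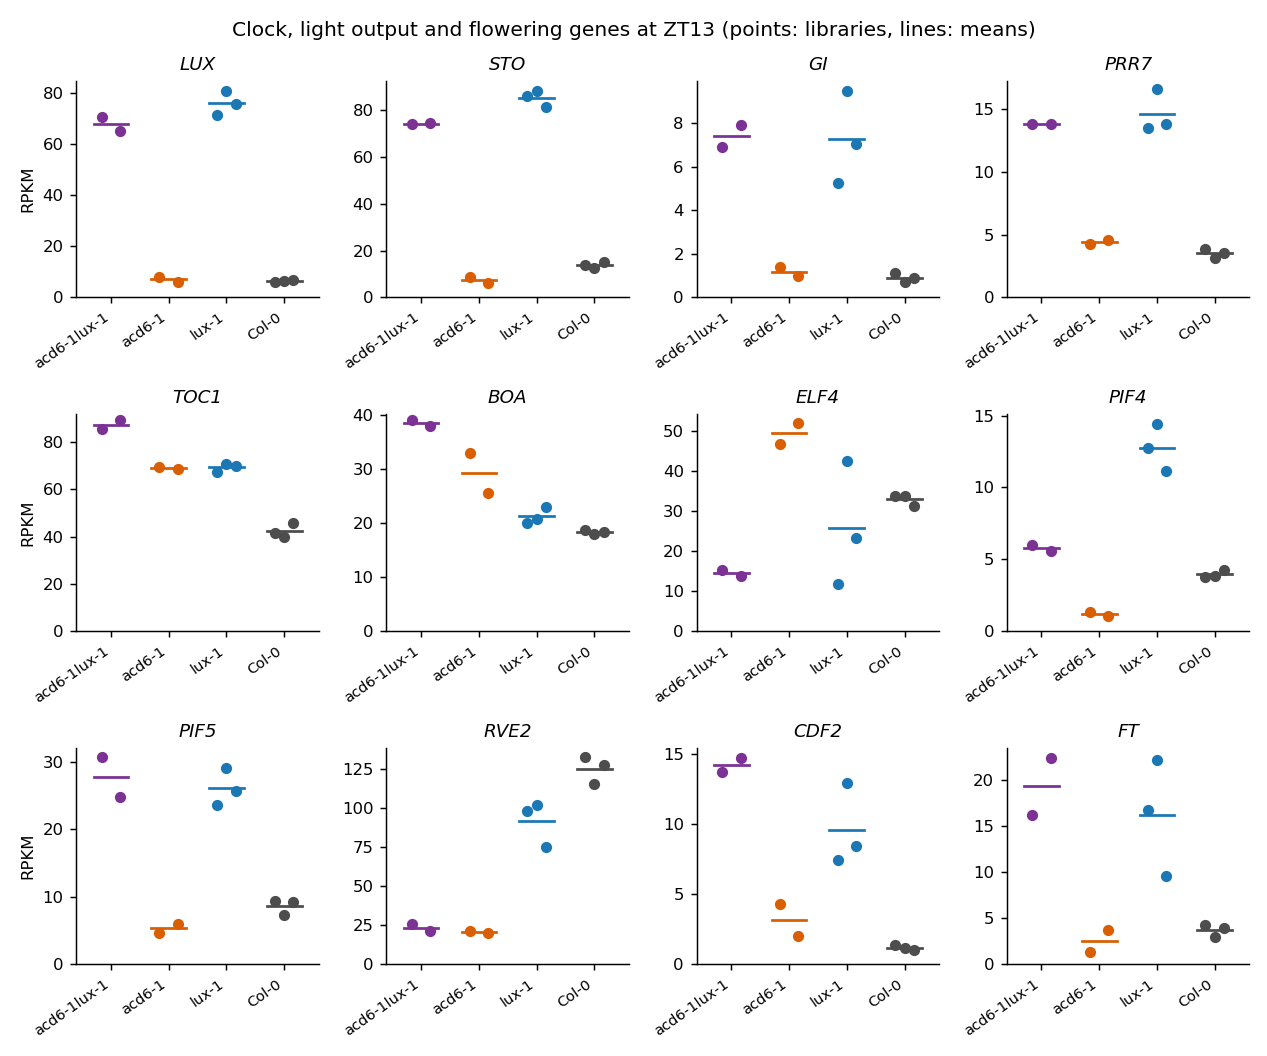
RPKM per library at ZT13 for 12 genes of the clock, its outputs and flowering in *acd6-1lux-1*, *acd6-1*, *lux-1* and Col-0, from left to right; each point is 1 library, each line the mean of a group, and axes are linear from 0. *LUX*, *STO*, *GI* and *PRR7* were high in both genotypes with *lux-1*, *RVE2* was low in both genotypes with *acd6-1*, and *TOC1* and *BOA* were highest in *acd6-1lux-1*.

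Of 17 clock and light outputs, 8 rose, 2 fell and 7 missed the test, with a median of 0.45. *STO* (AT1G06040), a B-box protein of light signaling, had the smallest adjusted p of this list, with 74.1 and 74.4 RPKM in *acd6-1lux-1* and 14.0, 12.6 and 15 RPKM in Col-0 (log2 fold change 2.34, SE 0.11, adjusted p = 9.5e-10). *PIF5* (AT3G59060), a growth-promoting factor that the evening complex represses at night, had 30.8 and 24.8 RPKM in *acd6-1lux-1* and 9.45, 7.29 and 9.27 RPKM in Col-0 (log2 fold change 1.57, SE 0.12, adjusted p = 7.9e-08). *PIF4* (AT2G43010), its relative, rose less, with 5.97 and 5.57 RPKM in *acd6-1lux-1* and 3.79, 3.80 and 4.26 RPKM in Col-0 (log2 fold change 0.45, SE 0.15, adjusted p = 0.021), and missed the test without the first *acd6-1lux-1* library (adjusted p = 0.128). *RVE2* (AT5G37260), a MYB-like factor, went the other way, with 25.7 and 21.3 RPKM in *acd6-1lux-1* and 133, 116 and 128 RPKM in Col-0 (log2 fold change -2.37, SE 0.19, adjusted p = 9.4e-08). *RVE2* was 5.34-fold lower in mean RPKM, with both *acd6-1lux-1* libraries far below the Col-0 range. The B-box gene *STH* rose by 1.21, and the RNA-binding proteins *GRP7* and *GRP8* missed the test at -0.10 and 0.19.

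Of 10 flowering-time genes 6 rose, 2 fell and 2 missed the test, with a median of 0.74. *FT* (AT1G65480), the mobile flowering signal, had 16.2 and 22.4 RPKM in *acd6-1lux-1* and 4.23, 2.92 and 3.99 RPKM in Col-0 (log2 fold change 2.1, SE 0.30, adjusted p = 3.4e-05). *SOC1* (AT2G45660), which acts after *FT*, had 93.1 and 92.7 RPKM in *acd6-1lux-1* and 59.2, 54.3 and 60.4 RPKM in Col-0 (log2 fold change 0.67, SE 0.10, adjusted p = 6.3e-05). *CDF2* (AT5G39660), a repressor of *CO* and *FT*, rose as well, with 13.7 and 14.8 RPKM in *acd6-1lux-1* and 1.38, 1.17 and 1.06 RPKM in Col-0 (log2 fold change 2.79, SE 0.20, adjusted p = 5.1e-08). Promoters and repressors of flowering were thus higher together, as *CDF1*, *CDF3* and AT1G69570 also rose by 0.94, 0.82 and 1.02. *CO*, the activator of *FT*, had 2.89 and 2.88 RPKM in *acd6-1lux-1* and 3.22, 2.06 and 2.82 RPKM in Col-0 (adjusted p = 0.81). The repressors *FLC* and *SVP* fell by 0.75 and 0.19 on the log2 scale. *FLC* missed the test without the second *acd6-1lux-1* library (adjusted p = 0.366) and without the first or the third Col-0 library (adjusted p = 0.153 and 0.155). *SVP* missed it without either *acd6-1lux-1* library (adjusted p = 0.148 in both cases) or the second Col-0 library (adjusted p = 0.145).

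Floral genes were listed as markers of another organ. All 12 members of a list of floral organ and pollen coat genes rose, with a median of 1.98. The summed level of the list was 40.7 and 70.0 RPKM in *acd6-1lux-1* and 6.57, 2.33 and 5.55 RPKM in Col-0. *SEP1* (AT5G15800), a MADS-box gene of all floral whorls, had 11.2 and 14.1 RPKM in *acd6-1lux-1* and 1.59, 1.02 and 1.72 RPKM in Col-0 (log2 fold change 2.49, SE 0.39, adjusted p = 7.2e-05). *GRP17*, *GRP19* and *ATA27*, genes of the pollen coat, had reads in both *acd6-1lux-1* libraries. *GRP17* had 2.65 and 4.32 RPKM, *GRP19* 2.16 and 6.87 RPKM and *ATA27* 3.6 and 9.0 RPKM in *acd6-1lux-1*, and each Col-0 library listed them at 0. Without the second *acd6-1lux-1* library 9 of 12 passed, as *AP3* and *SEP3* missed the test (adjusted p = 0.113 and 0.184), and *PI* missed it without that library (adjusted p = 0.228) or the second Col-0 library (adjusted p = 0.11). Its sum was 6.61 and 6.07 RPKM in *acd6-1* and 124, 71.6 and 48.7 RPKM in *lux-1*. The part of floral organs in the other differences was not tested.

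Cold-response genes fell in 5 of 10 cases, rose in 1 and missed the test in 4, with a median of -0.60. The 5 that fell are effector genes downstream of the CBF factors. *KIN1* (AT5G15960), a small protective protein, had 25.0 and 24.1 RPKM in *acd6-1lux-1* and 299, 205 and 231 RPKM in Col-0 (log2 fold change -3.25, SE 0.38, adjusted p = 3.5e-06). *RD29A* (AT5G52310), a marker of cold and drought, had 29.7 and 19.8 RPKM in *acd6-1lux-1* and 199, 106 and 131 RPKM in Col-0 (log2 fold change -2.49, SE 0.30, adjusted p = 6.4e-06). *COR15B* (AT2G42530), the neighbour and relative of *COR15A*, had 54.0 and 37.6 RPKM in *acd6-1lux-1* and 182, 165 and 180.0 RPKM in Col-0 (log2 fold change -1.94, SE 0.27, adjusted p = 2.8e-05). No *acd6-1lux-1* library overlapped with Col-0 in these genes, and the dehydrin gene *COR47* fell by 0.93. The CBF genes themselves did not follow. *CBF1* had 20.7 and 23.9 RPKM in *acd6-1lux-1* and 15, 28.7 and 32.2 RPKM in Col-0, *CBF2* differed by 0.41 and *CBF3* by 0.18, and each missed the test. *ZAT12*, a zinc finger factor that also answers to light and wounding, rose by 0.59.

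Light harvesting and photosynthesis genes split, with 8 rises, 8 falls and 5 members that missed the test of 21 and a median of -0.12. *LHCB2.2* (AT2G05070), a chlorophyll-binding protein of photosystem II, had 89.5 and 72.1 RPKM in *acd6-1lux-1* and 20.9, 21.4 and 24.9 RPKM in Col-0 (log2 fold change 1.80, SE 0.14, adjusted p = 9.1e-08). *LHCA4* (AT3G47470), its counterpart at photosystem I, had 1219 and 977 RPKM in *acd6-1lux-1* and 562, 569 and 607 RPKM in Col-0 (log2 fold change 0.91, SE 0.12, adjusted p = 1.2e-05). *LHCB2.1*, *LHCB2.3* and *LHCB3* rose by 1.80, 1.37 and 0.78. The near-identical *LHCB2.1* and *LHCB2.2* could share reads, and both rose. *PSBO1* (AT5G66570), a subunit of the oxygen-evolving complex, went the other way, with 1643 and 1418 RPKM in *acd6-1lux-1* and 2880.5, 2919.6 and 2777 RPKM in Col-0 (log2 fold change -0.90, SE 0.13, adjusted p = 3.9e-05). *LHCB4.1*, *LHCA2*, *PSBP1* and the Rubisco activase gene *RCA* also fell, by 0.65, 0.69, 0.62 and 0.57 on the log2 scale. The abundant *LHCB1.1*, *LHCB1.2* and *LHCB1.3*, near-identical copies, fell by 0.50, 0.51 and 0.65 and missed the test without the second *acd6-1lux-1* library (adjusted p = 0.299, 0.307 and 0.223). Of the rises, *LHCB6* and *LHCB4.2* missed the test without the first *acd6-1lux-1* library (adjusted p = 0.281 and 0.427), and *LHCB4.2* also without the first Col-0 library (adjusted p = 0.113). *LHCB1.5* missed it without either *acd6-1lux-1* library (adjusted p = 0.451 and 0.103), without the first or the second Col-0 library (adjusted p = 0.25 and 0.235), and, by less, without 1 of 10 libraries of other groups (adjusted p from 0.104 to 0.11). The 8 genes that rose all encode antenna proteins, and the 8 that fell include antenna proteins, subunits of the oxygen-evolving complex and *RCA*.

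Starch genes fell in 13 of 15 cases and missed the test in 2, with a median of -0.65. The fall took in synthesis and breakdown. *SS1* (AT5G24300), a starch synthase, had 35.5 and 31.4 RPKM in *acd6-1lux-1* and 56.4, 61.2 and 53.6 RPKM in Col-0 (log2 fold change -0.75, SE 0.08, adjusted p = 2.1e-06). *GWD1* (AT1G10760), which phosphorylates starch for its breakdown at night, had 49.8 and 50.5 RPKM in *acd6-1lux-1* and 100.4, 92.0 and 96.1 RPKM in Col-0 (log2 fold change -0.92, SE 0.10, adjusted p = 1.4e-06). *MEX1* (AT5G17520), which exports maltose from the chloroplast, had 17.9 and 15.7 RPKM in *acd6-1lux-1* and 36.5, 36.1 and 34.9 RPKM in Col-0 (log2 fold change -1.05, SE 0.14, adjusted p = 1.7e-05). All *acd6-1lux-1* libraries lay below all Col-0 libraries in these genes, with the replicates close together. The exceptions were *GBSS1*, an amylose synthase, with 1.98 and 4.01 RPKM in *acd6-1lux-1* and 3.47, 2.76 and 2.52 RPKM in Col-0, and *BAM9* at 0.24. Genes of dark and sugar starvation showed 3 rises, 4 falls and 2 members that missed the test of 9. The fall of *SEN1* was lost without the first or the third Col-0 library (adjusted p = 0.138 and 0.24). It was lost by less without single libraries of groups outside this comparison (adjusted p from 0.1 to 0.107). Leaving out either *acd6-1lux-1* library also lost it, at log2 fold changes of -0.92 and -0.67. The rise of *ASN1* was lost without the third Col-0 library (adjusted p = 0.133) and without the first *acd6-1lux-1* library (log2 fold change 0.98). *DIN2* (AT3G60140), a glucosidase gene induced in the dark, had 131 and 61.6 RPKM in *acd6-1lux-1* and 15.8, 4.57 and 3.27 RPKM in Col-0 (log2 fold change 3.63, SE 0.88, adjusted p = 0.0035). *DRM1* (AT1G28330), a dormancy-associated gene, had 99.3 and 92.8 RPKM in *acd6-1lux-1* and 168, 190.1 and 212 RPKM in Col-0 (log2 fold change -0.97, SE 0.25, adjusted p = 0.0058).

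Leaf senescence genes rose in 7 of 11 cases and missed the test in 4, with a median of 1.00. *NAP* (AT1G69490), a NAC factor that promotes senescence, had 30.5 and 31.5 RPKM in *acd6-1lux-1* and 7.35, 4.52 and 7.03 RPKM in Col-0 (log2 fold change 2.16, SE 0.32, adjusted p = 4.6e-05). *SAG12*, a protease gene of late senescence, had 12.2 and 8.12 RPKM in *acd6-1lux-1*, and each Col-0 library listed it at 0. *SAG13* rose by 2.23 and *NYE1*, which starts chlorophyll breakdown, by 1.09. The later chlorophyll breakdown genes *NYC1*, *PPH* and *PAO* missed the test, at 0.26, 0.27 and 0.12. The count fell to 4 without any 1 of the *acd6-1lux-1* libraries or of the second and the third Col-0 libraries, and *ORE1*, *WRKY6* and *SAG21* each missed the test in those 4 fits (adjusted p from 0.103 to 0.365). Wax synthesis genes showed 3 rises, 2 falls and 3 members that missed the test of 8. The rise of *WSD1* was lost without the second or the third Col-0 library (adjusted p = 0.195 and 0.182). It was lost by less without single libraries of groups outside this comparison (adjusted p from 0.101 to 0.107). The fall of *CER3* was lost without the second Col-0 library (adjusted p = 0.127). Both calls were also lost without either *acd6-1lux-1* library. Without the first and the second of these, the log2 fold change was 0.79 and 0.60 for *WSD1* and -0.37 and -0.53 for *CER3*. *CER4* (AT4G33790), which makes wax alcohols, had 9.48 and 11.9 RPKM in *acd6-1lux-1* and 0.116, 0.284 and 0 RPKM in Col-0 (log2 fold change 3.37, SE 0.30, adjusted p = 2.7e-07), a rise of the same kind as that of *CYP96A15*. *KCS6*, which elongates the fatty acids of wax, fell by 0.74. The floral list, given above, was also higher in *acd6-1lux-1*, and its part in the wax genes was not tested.

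Of 8 root marker genes 5 were tested, of which 1 fell and 4 missed the test, and the summed level was 65.9 and 104 RPKM in *acd6-1lux-1* and 140.0, 137 and 130.0 RPKM in Col-0. *PYK10*, the glucosidase of root ER bodies, made up most of that sum, with 52.3 and 92.0 RPKM in *acd6-1lux-1* and 126, 125 and 117 RPKM in Col-0 (log2 fold change -0.82, SE 0.37, adjusted p = 0.099). It missed the test without the first *acd6-1lux-1* library (adjusted p = 0.567), without any 1 Col-0 library of ZT13 (adjusted p from 0.144 to 0.17), and, by less, without 1 of 13 libraries of other groups (adjusted p from 0.101 to 0.112). Touch and wounding genes, which handling of plants can induce, rose in 5 of 7 cases with a median of 0.86. Their sum was 5030.3 and 4881 RPKM in *acd6-1lux-1* and 1780.5, 2479 and 2433 RPKM in Col-0. *TCH3* (AT2G41100), a calmodulin-like protein, had 1940.2 and 1871 RPKM in *acd6-1lux-1* and 536, 537 and 589.7 RPKM in Col-0 (log2 fold change 1.78, SE 0.22, adjusted p = 6.4e-06). The part of handling in the JA and PTI differences was not tested.

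The same libraries can be set beside the single mutants of ZT13. *acd6-1* against Col-0 had 2583 called genes (11.9%), 7.74% higher and 4.18% lower, and 48.8% of all genes passed without the fold criterion, 22.3% as higher and 26.5% as lower. *lux-1* against Col-0 had 195 (0.9%), 0.683% higher and 0.217% lower, and 3.93% of all genes passed, 2.08% as higher and 1.85% as lower. Both comparisons share the Col-0 libraries with that of *acd6-1lux-1*. In SA and NHP synthesis, 11 of 12 members rose in *acd6-1* with a median of 3.10, and none rose and 1 fell in *lux-1* with a median of -0.10. In SA signaling, 17 of 18 rose in *acd6-1* with a median of 2.47, and none passed in *lux-1*, where the median was -0.04. The clock list had 6 rises and 5 falls of 24 in *acd6-1* and 12 rises and no fall in *lux-1*. In the floral list no member of 12 passed in *acd6-1*, and 12 rose in *lux-1*.

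A direct comparison of *acd6-1lux-1* with *acd6-1* called 131 genes (0.605%), 99 higher (0.457%) and 32 lower (0.148%) in *acd6-1lux-1*, and 1.5% of all genes passed without the fold criterion, 1.15% as higher and 0.346% as lower. Leaving out the second *acd6-1* library moved this to 71 higher and 117 lower, and fitting only these libraries left 57 called genes. Of the SA and NHP synthesis, SA signaling, PTI, NLR, CRK and ER folding lists, no member passed in this comparison, with medians between -0.18 and 0.04. Missing the test does not show that levels were equal, and the errors of single genes were wide. *PR1* had 3176 and 5043 RPKM in *acd6-1lux-1*, against 6213 and 9235 RPKM in *acd6-1*, a log2 difference of -0.92, SE 0.80, adjusted p = 0.78, and *ICS1* had 182 and 233 RPKM in *acd6-1lux-1*, against 172 and 207 RPKM in *acd6-1*, a log2 difference of 0.13, SE 0.27, adjusted p = 0.94. Among the other lists, 17 of 21 light harvesting genes passed as higher, and 7 of 24 core clock genes as higher and 1 as lower. Of flowering genes 5 of 10, and of floral organ and pollen coat genes 7 of 12, passed as higher. Higher were also 5 of 17 clock and light outputs, 3 of 12 aliphatic glucosinolate genes and 3 of 8 wax genes. In the root list 1 of 5 passed as higher, and in the cold list 1 of 10 as lower. The part of floral organs in these differences was not tested. *STO* had 74.1 and 74.4 RPKM in *acd6-1lux-1*, against 8.77 and 5.97 RPKM in *acd6-1* (log2 difference 3.19, SE 0.12, adjusted p = 4.9e-11). *FT* had 16.2 and 22.4 RPKM in *acd6-1lux-1*, against 1.38 and 3.74 RPKM in *acd6-1* (log2 difference 2.58, SE 0.33, adjusted p = 0.00022). *COR15A* was lower in *acd6-1lux-1* even than in *acd6-1*, where it had 108 and 74.7 RPKM (log2 difference -1.31, SE 0.35, adjusted p = 0.097). In the aliphatic glucosinolate list, 2 of 12 members fell in *acd6-1lux-1* against Col-0 and 10 fell in *acd6-1*. *MYB76*, a regulator of this pathway, had 3.41 and 3.32 RPKM in *acd6-1lux-1*, against 1.24 and 0.935 RPKM in *acd6-1* (log2 difference 1.07, SE 0.18, adjusted p = 0.0042), and *CYP79F1*, which acts on chain-elongated methionine, had 59.5 and 112 RPKM in *acd6-1lux-1*, against 41.8 and 32.8 RPKM in *acd6-1* (log2 difference 1.12, SE 0.29, adjusted p = 0.084).

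Against *lux-1*, *acd6-1lux-1* had 1681 called genes (7.76%), 1165 higher (5.38%) and 516 lower (2.38%), and 38.0% of all genes passed without the fold criterion, 19.9% as higher and 18.1% as lower. The SA and NHP synthesis list rose in 11 of 12 members and *EPS1* fell. PTI rose in 21 of 23, and the NLR, CRK and ER folding lists in all of their 13, 14 and 13 members. Starch genes fell in 13 of 15 and light harvesting genes in 17 of 21. *PR1* had 3176 and 5043 RPKM in *acd6-1lux-1*, against 134, 976 and 314 RPKM in *lux-1* (log2 difference 3.53, SE 0.73, adjusted p = 0.0011), and the *lux-1* libraries spread over a 7-fold range. In the clock list 3 of 24 members were higher and 4 lower in *acd6-1lux-1*, no more than the share of all genes that passed.

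Whether the double mutant equals the sum of the single mutants was tested by the departure from additivity, *acd6-1lux-1* minus *acd6-1* minus *lux-1* plus Col-0 on the log2 scale. It was called in 72 genes (0.332%), 32 (0.148%) above and 40 (0.185%) below the sum, and without the fold criterion 127 genes (0.586%) passed, 0.342% above and 0.245% below. This count was sensitive to single libraries. It was 223 without the first *lux-1* library, 160 without the second *acd6-1* library, and 20 without the first *acd6-1lux-1* library. No member of the SA and NHP synthesis, SA signaling, PTI or core clock lists passed.

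In light harvesting 10 of 21 members passed, all above the sum, with a median departure of 0.80 against 0.06 over all genes. In *acd6-1*, 20 of 21 members fell against Col-0 with a median of -1.30, and in *lux-1* 11 rose and none fell, with a median of 0.58. In *acd6-1lux-1* 17 were higher than in *acd6-1* and 17 lower than in *lux-1*. *LHCB1.5* (AT2G34420) had 939.8 and 764 RPKM in *acd6-1lux-1*, 106 and 107 in *acd6-1*, 1205, 1306 and 1323 in *lux-1* and 552, 567 and 781 in Col-0, a departure of 1.95, SE 0.28, adjusted p = 0.0042. *LHCB3* (AT5G54270), an antenna protein of photosystem II, had 599 and 479 RPKM in *acd6-1lux-1*, 87.7 and 90.1 in *acd6-1*, 918, 824 and 909 in *lux-1* and 297, 310.1 and 331 in Col-0, a departure of 1.08, SE 0.17, adjusted p = 0.0076. The *acd6-1* libraries lay below those of the other 3 genotypes in both genes. *LHCB1.2* departed by 1.71, SE 0.24, adjusted p = 0.0041, and *LHCB4.2* by 1.14, SE 0.20, adjusted p = 0.02. *LHCB1.2*, *LHCB1.5* and *LHCB3* passed under each alternative tried, *LHCB4.2* missed it without the first *acd6-1lux-1* library (adjusted p = 0.193), and *LHCB2.1*, at 1.04, missed it without that library (adjusted p = 0.283) and under other settings. Outside this list, *WSD1*, a wax ester synthase, departed by 2.18, SE 0.44, adjusted p = 0.051, and the cold gene *COR15B* by 1.63, SE 0.39, adjusted p = 0.097. Without the first *acd6-1lux-1* library *WSD1* had an adjusted p of 0.193 and *COR15B* of 0.404, and *COR15B* missed the test in most alternatives.

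**Figure D4:**
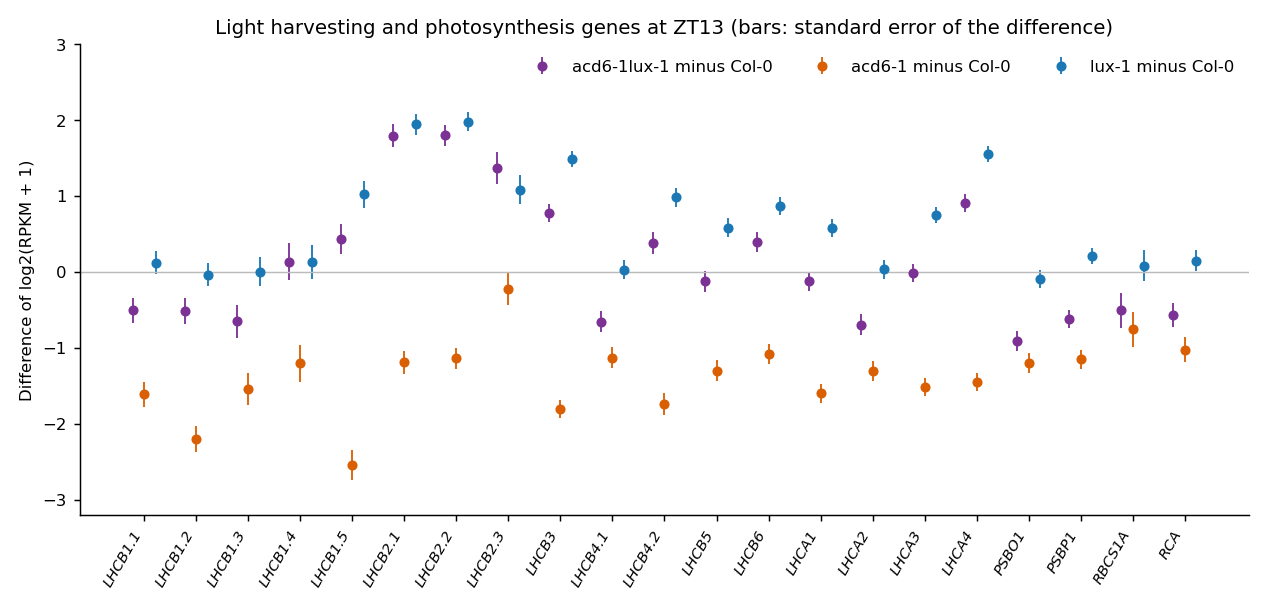
Log2 difference from Col-0 at ZT13, with bars of 1 standard error, for the 21 light harvesting and photosynthesis genes in *acd6-1lux-1*, *acd6-1* and *lux-1*. The *acd6-1lux-1* points have a median of -0.12 and mostly fall between the others, the *acd6-1* points lie below 0 with a median of -1.30, and the *lux-1* points lie mostly above 0 with a median of 0.58.

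The 4 largest departures from additivity were genes of chromosome 4 whose level in *lux-1* stood apart from all other genotypes. AT4G20480 had 45.7 and 43.6 RPKM in *acd6-1lux-1*, 50.5 and 48.4 in *acd6-1*, 0.187, 0.288 and 0.481 in *lux-1* and 38.8, 37.6 and 37.9 in Col-0 (departure 4.75, SE 0.15, adjusted p = 2.6e-12). AT4G19510 had 19.7 and 20.5 RPKM in *acd6-1lux-1*, 19.2 and 17.0 in *acd6-1*, 1.38, 1.16 and 1.39 in *lux-1* and 17.5, 16.7 and 18.1 in Col-0 (departure 3.14, SE 0.15, adjusted p = 5.3e-10). The double mutant was at the level of Col-0 in these genes and did not share the low level of *lux-1*. AT4G19500 departed by 4.0. AT4G24420 was the reverse, with 0 and 0.278 RPKM in *acd6-1lux-1*, 0 and 0.277 in *acd6-1*, 8.09, 12.3 and 7.44 in *lux-1* and 0 in the 3 Col-0 libraries. It passed in limma (adjusted p = 2.3e-05) but not in edgeR or DESeq2 on reads recovered from RPKM (adjusted p = 0.265 and 0.131). Beyond AT4G24420 on the same chromosome, more genes were called, from *CLT2* (AT4G24460) to *J11* (AT4G36040). Below the sum were AT4G25310 (-1.86), AT4G27050 (-1.69), *J11* (-1.38) and *REN1* (AT4G24580, -1.21). Above it were AT4G28085 (2.18), AT4G25260 (1.57), AT4G25070 (1.48), AT4G29905 (1.17), AT4G27300 (1.09) and *CLT2* (1.07). On the other side of AT4G19500, *TIP2;2* (AT4G17340) was called at 1.44. The others of the 8 largest departures lay below the sum. They were AT5G23830 (-2.95), AT1G07160 (-2.71), the ethylene response factor gene *ERF71* (-2.44) and *WRKY31* (-2.42). *ERF71* had 1.5 and 1.71 RPKM in *acd6-1lux-1*, 11.2 and 4.25 in *acd6-1*, 1.57, 2.78 and 2.2 in *lux-1* and 0.333, 1.36 and 0.785 in Col-0. Each of these 4 missed the test without the first *acd6-1lux-1* library (adjusted p = 0.324, 0.218, 0.2 and 0.193).

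The stretch of chromosome 4 between AT4G19500 and AT4G24420 was chosen because earlier results of these data had placed several genes that differed in *lux-1* there. In it 422 genes were tested, and 58 (13.7%) were called in *acd6-1lux-1* against Col-0, 44 higher and 14 lower, beside 9.23% over all genes. *acd6-1* against Col-0 had 73 called genes there (17.3%), beside 11.9% over all genes. *lux-1* against Col-0 had 13 (3.08%), beside 0.9%. Because the stretch was chosen by genes that differ in *lux-1*, this share was raised by the choice and tests nothing. Between *acd6-1lux-1* and *acd6-1*, 0 were called, beside 0.605%. The stretch holds a tandem array of CRK genes, with 21 tested, 14 called higher and 1, *CRK21*, lower (-1.43) in *acd6-1lux-1* against Col-0. Leaving these aside, it holds 3 neighbouring methionine sulfoxide reductase genes that rose. *MSRB8* (AT4G21840) had 46.4 and 64.6 RPKM in *acd6-1lux-1* and 7.96, 6.01 and 2.44 RPKM in Col-0 (log2 fold change 3.22, SE 0.43, adjusted p = 1.5e-05), and *MSRB7* and *MSRB9* rose by 1.97 and 2.41. These copies are similar, and their reads could be split. *CHX17*, a cation exchanger gene, rose by 3.06. Of the 7 tested genes from AT4G22485 to AT4G22520, 6 were called lower, by 1.59 to 2.88 on the log2 scale, and AT4G22490 missed the test (log2 fold change -0.89, adjusted p = 0.41). AT4G22513 had 1.55 and 5.91 RPKM in *acd6-1lux-1* and 23.5, 36.1 and 31.9 RPKM in Col-0. Of these genes AT4G22505, AT4G22513, AT4G22517 and AT4G22520 missed the test without the first *acd6-1lux-1* library (adjusted p from 0.128 to 0.292), and AT4G22517 also without the third Col-0 library (adjusted p = 0.103). *CORI3* and the PTI factor *WRKY53* also lie in this stretch.

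**Figure D5:**
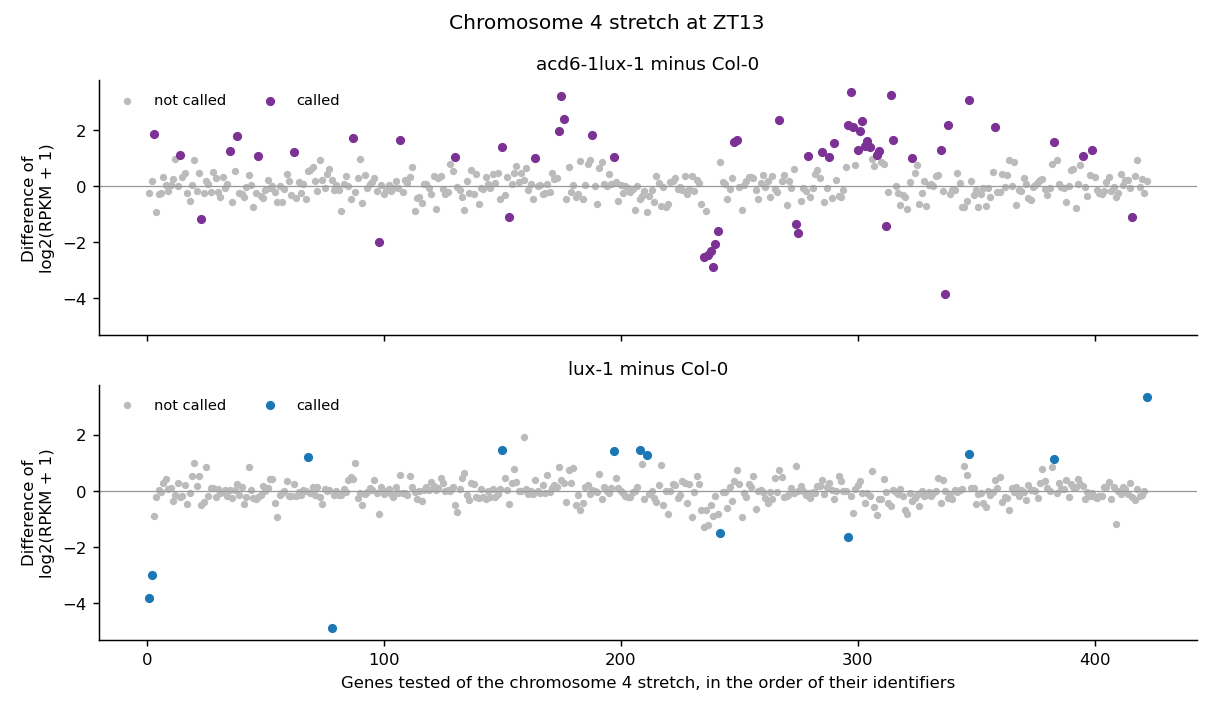
Log2 difference of each tested gene of the chromosome 4 stretch by gene order, in *acd6-1lux-1* against Col-0 (top) and in *lux-1* against Col-0 (bottom) at ZT13. The 3 genes far below 0 and AT4G24420 far above 0 in *lux-1* lie close to 0 in *acd6-1lux-1*, where 44 genes were called higher and 14 lower.

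The evening difference was last set against that of the morning in the same genotypes. At ZT1, *acd6-1lux-1* against Col-0 had 2768 called genes (12.8%), 2306 higher (10.6%) and 462 lower (2.13%), and 58.0% of all genes passed without the fold criterion, 40.2% as higher and 17.8% as lower. The difference of the differences, ZT13 minus ZT1, was called in 2006 genes (9.26%), 601 higher (2.77%) and 1405 lower (6.48%), and 35.7% of all genes passed without the fold criterion, 7.08% as higher and 28.6% as lower. Its median over all genes was -0.19, which median-of-ratios scaling brought to about 0, with 877 higher and 864 lower calls, and quantile normalization gave 915 and 824. The direction of the split therefore rests on the scaling. The third *acd6-1lux-1* library of ZT1 stood apart, with 60.51% of its reads mapped and 0.661% chloroplast transcripts, and without it 528 genes were higher and 1415 lower.

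*DRM2*, *RVE2* and *LHCB2.2* changed by far more than that shift. *DRM2* (AT2G33830), a dormancy-associated gene, had 74.3, 82.0 and 61.7 RPKM in *acd6-1lux-1* and 3.02, 2.45 and 1.15 RPKM in Col-0 at ZT1, and 186 and 179.7 RPKM in *acd6-1lux-1* and 298, 369.8 and 404 RPKM in Col-0 at ZT13 (difference between times -5.51, SE 0.38, adjusted p = 1e-07). The order of the genotypes turned round between morning and evening. *RVE2* had 11.1, 13.5 and 10.9 RPKM in *acd6-1lux-1* and 2.94, 3.19 and 4.01 RPKM in Col-0 at ZT1, so its evening fall did not hold at ZT1 (difference between times -3.92, SE 0.25, adjusted p = 8.5e-08). *LHCB2.2* had 2083, 2524 and 2388 RPKM in *acd6-1lux-1* and 5076, 4926 and 4655 RPKM in Col-0 at ZT1, where *acd6-1lux-1* was lower, and its evening rise gave a difference between times of 2.87, SE 0.19, adjusted p = 8.9e-08. In dark and sugar starvation all 9 members were higher in *acd6-1lux-1* at ZT1, and 8 of 9 moved down from ZT1 to ZT13 relative to Col-0, with a median of -1.64. In light harvesting all 21 were lower at ZT1 and 13 moved up, with a median of 0.78. In SA synthesis *ICS1* had 129, 72.1 and 159.8 RPKM in *acd6-1lux-1* and 10.1, 9.67 and 11.6 RPKM in Col-0 at ZT1 (difference between times 0.40, SE 0.33, adjusted p = 0.4), and 3 of 12 members of SA and NHP synthesis passed as lower, a share near the 28.6% of all genes. *PR1* had 3602, 1156 and 3155 RPKM in *acd6-1lux-1* and 26.6, 15.7 and 45.5 RPKM in Col-0 at ZT1, and its difference between times was -2.03, SE 0.98, adjusted p = 0.13.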

How the data were processed

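Libraries were made by the authors with a TruSeq kit from 0.5 µg of total RNA per replicate and sequenced as single reads on a HiSeq, in biological triplicate, with duplicates for the 2 genotypes carrying *acd6-1* at ZT13. The submitters' notes name CASAVA and build TAIR10, and the aligner is not given in the sources used here. RPKM values of 25218 transcripts, counts of total reads and the percent mapped were used as deposited by the authors. RPKM scales with depth and transcript length, so an abundant transcript that rises lowers the others. The genotype written acd6-1-0 in the labels was taken as *acd6-1*. The table has 1 column of values that matches none of these samples and was not used. Symbols came from RefSeq TAIR10.1 for 24867 of the identifiers, and 6 list genes without a symbol there are given by identifier.

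All 22 libraries were fitted as 8 groups by limma 3.58.1 (R 4.3.3) with a trended prior variance on log2(RPKM + 1), for genes with a mean above 0.3 RPKM in at least 1 group, with Benjamini-Hochberg adjustment over 21666 genes. Reads were recovered by multiplying RPKM by mapped reads and by a transcript length. For each gene the length was searched as the shortest that gave whole reads in all libraries, within 0.001 read. Such a length was found for 100.0% of genes, and edgeR 4.0.16 and DESeq2 1.42.0 were run on these reads. Other alternatives changed the pseudocount (0.1 or 0.5), the filter (none, or 1 RPKM), the scaling (quantile normalization or median-of-ratios) and the thresholds (an adjusted p under 0.05, or no fold criterion). Further ones used only the libraries compared, a prior without trend, a replicate block, or left out each library in turn. RPKM without organelle genes was added after the data were seen. Where 1 library of a group was left, it was assumed to vary like the other groups.

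Named genes were taken from *LUX* and *ACD6*, the 12 largest rises and falls with a mean of at least 5 RPKM and no overlap, up to 6 members per list with the smallest adjusted p, members that moved against their list or missed the test, the 8 largest departures from additivity and called genes of the chromosome 4 stretch. Other genes were named after their values were seen. Genes under this rule that are not described stand in the counts only. The 22 lists (302 entries, 301 in the table) and the groups compared were chosen with earlier results of these data known. Tables used pandas 2.3.3 and numpy 2.4.6, and figures matplotlib 3.10.9, under Python 3.11.15.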

Additional observations from a re-analysis of the deposited data

Results flagged for a closer look

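The difference between *acd6-1lux-1* and Col-0 itself differed between ZT13 and ZT1 in 2006 called genes, and the 4 largest in each direction among the list members are given as log2 differences between times. *RRTF1*, an early wound-response factor, had 3.85, *LHCB2.3* 3.36, *LHCB2.2* 2.87 and *LHCB2.1* 2.67, so each stood higher relative to Col-0 in the evening than in the morning. *DRM2* had -5.51, *SEN1* -4.61, *DRM1* -4.08 and *RVE2* -3.92, so each stood lower relative to Col-0 in the evening. *SEN1*, a gene induced in the dark, had 183, 96.5 and 135 RPKM in *acd6-1lux-1* and 14.7, 6.31 and 6.58 RPKM in Col-0 at ZT1, and 21.4 and 17.8 RPKM in *acd6-1lux-1* and 33.5, 28.8 and 42.4 RPKM in Col-0 at ZT13. *RRTF1* had 9.90, 13.8 and 20.3 RPKM in *acd6-1lux-1* and 58.7, 82.0 and 87.9 RPKM in Col-0 at ZT1, and 319 and 331 RPKM in *acd6-1lux-1* and 62.0, 152 and 152 RPKM in Col-0 at ZT13.

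The difference between *acd6-1lux-1* and *acd6-1* was unlike that between *lux-1* and Col-0, as a departure from additivity at ZT13, in these genes. The largest were AT4G20480 at 4.75, AT4G19500 at 4.0, AT4G24420 at -3.33, AT4G19510 at 3.14, AT5G23830 at -2.95, AT1G07160 at -2.71, *ERF71* at -2.44 and *WRKY31* at -2.42 on the log2 scale. Among list members *WSD1* had 2.18, *LHCB1.5* 1.95, *LHCB1.2* 1.71, *COR15B* 1.63, *LHCB4.2* 1.14, *LHCB3* 1.08 and *LHCB2.1* 1.04. The part of the *lux-1* mutation itself in these departures was not tested.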

How the results depend on the processing

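The count of called genes between *acd6-1lux-1* and Col-0 at ZT13 stayed between 1922 and 2083 when any 1 library was left out, and was 9232 without the fold criterion. Without that criterion the counts were 7734 for the difference between times, 325 against *acd6-1*, 8243 against *lux-1* and 127 for the departure from additivity. With only the libraries compared in the fit they were 57 against *acd6-1* and 43 for the departure from additivity, which was 33 at an adjusted p under 0.05, 214 with DESeq2 and between 20 and 223 without 1 library. Leaving out 1 library gave 106 to 188 calls against *acd6-1*, 1577 to 1783 against *lux-1* and 1761 to 2464 between times. Of list members passing, leaving out 1 library gave 6 to 12 clock and light outputs, 4 to 7 senescence genes, 3 to 5 wax genes (3 at an adjusted p under 0.05) and 0 to 2 root genes (2 with quantile normalization). Between same-numbered libraries of *acd6-1lux-1* and Col-0 at ZT13, correlations of deviations from the group means lay between -0.02 and 0.02. The deviations of 2 libraries mirror each other, so these correlations cannot show whether libraries were paired. With a replicate block by the number in the title 1421 genes were higher and 622 lower and 2 root genes passed. With the number in the description as replicate block they were 1429 and 576. Over 382 results for single genes and all alternatives, 13364 of 13746 values kept direction and side of the threshold, 298 no longer passed, 84 passed newly and 0 changed sign with a call; 232 of the 293 genes that passed against Col-0 did so in every alternative. With 2 *acd6-1lux-1* libraries, a missed test at low RPKM does not show equal levels.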
